A study of Mus musculus with 11 samples.

Results

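The 10 genes described here are textbook targets of the transcription factor p53, and they were followed through acetaminophen (APAP) injury of the mouse liver, a model in which the drug kills the hepatocytes around the central vein and the surviving tissue closes the wound and regrows. They were Cdkn1a, Mdm2, Ccng1, Bax, Bbc3, Phlda3, Gdf15, Btg2, Trp53inp1 and Sesn2, taken by symbol, and all 10 were found among the 31053 genes of the count matrices. Expression was measured with Visium, in which RNA from a frozen section is captured on a grid of barcoded spots that each cover several cells, and molecules are counted by unique molecular identifiers (UMIs). Of the 11 mouse liver sections 3 were uninjured (0 h), and the others were taken 24 h (2 sections), 36 h (2 sections) and 48 h (4 sections) after APAP. Per the study's methods the mice were adult C57BL/6JCrl animals that were fasted before an intraperitoneal injection. The labels give no genotype, sex, age or dose for these sections and carry no genetic change. The same methods name a single mouse liver per time point, so the errors below are the spread between sections and an effect of time cannot be told apart from a difference between mice.

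p53 is held low in unstressed cells, mainly because the ubiquitin ligase MDM2 marks it for destruction, and DNA damage or other stress releases it. It then switches on genes that stop the cell cycle or open the mitochondrial route to apoptosis. Others repair DNA or adjust metabolism, and some, Mdm2 among them, feed back on p53 itself. Cdkn1a encodes p21, the inhibitor of cyclin-dependent kinases. Because p53 is controlled largely at the level of the protein, the level of its own mRNA says little about its activity, and several of these targets are also switched on by other stress pathways. In the liver p21 restrains hepatocytes that would otherwise enter the cell cycle after injury.

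p53 binds 2 copies of a 10-base half-site, set close together. In RefSeq promoter windows of the GRCm38.p6 build, running from 250 bases before to 50 bases after each start, 9 of the 10 genes had an entry and Trp53inp1 had none. An exact match to the p53 half-site consensus, which reads the same on both strands, was present for 4 of these 9 genes, namely Cdkn1a, Mdm2, Ccng1 and Bax, against 8.36% of all 32851 windows. A pair of half-sites with at most 1 mismatch in all and a spacer of at most 13 bases was present for Cdkn1a and Ccng1, against 0.627% of windows. These shares are per window, while a target was counted where any of its windows held the pattern, and the 9 genes had 13 windows. The stretches are shown because they hold the letters that define the family, with the half-sites in capitals and 10 bases on each side.
Cdkn1a (chr17:29090896-29090957, plus strand): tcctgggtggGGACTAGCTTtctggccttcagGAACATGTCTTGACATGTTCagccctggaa
Ccng1 (chr11:40755452-40755491, minus strand): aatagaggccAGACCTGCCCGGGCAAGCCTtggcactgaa
Bax (chr7:45467069-45467109, minus strand): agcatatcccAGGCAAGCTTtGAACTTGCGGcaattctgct
Mdm2 (chr10:117710925-117710954, minus strand): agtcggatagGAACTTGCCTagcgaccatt
Bbc3 (chr7:16309476-16309515, plus strand): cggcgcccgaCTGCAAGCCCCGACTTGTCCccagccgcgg
In Cdkn1a the first capital lay 73 bases before 1 of its 2 annotated starts and the last 32 bases before it. The first pair of half-sites there was exact with a spacer of 12 bases, and the middle half-site was followed directly by another with 1 mismatch. In Ccng1 the pair began 195 bases before the start and held 1 mismatch. In Bax it began 201 bases before the start and held 2. In Mdm2 a single exact half-site began 186 bases before the start. The Bbc3 stretch held 3 mismatches, a number that 15.6% of all windows reach, began 97 bases before 1 of its 3 annotated starts and lay in an intron of Bbc3 in the GENCODE annotation. The Bax stretch lay in an intron of Gm45808, while the stretches of Cdkn1a, Ccng1 and Mdm2 lay in no annotated gene. The windows of Phlda3, Gdf15, Btg2 and Sesn2 held no exact half-site and no pair with 3 or fewer mismatches, which says only that these letters are not in these windows.

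Between 1490 and 3466 spots per section passed the filters, with 31292663 to 67045372 UMIs per section and a median of 15168.5 to 29950 UMIs per spot. Hepatocyte markers (Alb, Ttr, Trf, Apoa1 and Hnf4a) made up 114253 to 119419 CPM (counts per 1000000 UMIs) in uninjured liver and 77223.5 to 102883 CPM after injury, so the labelled tissue was borne out in every section. Neutrophil markers were between 3.17 and 9.05 CPM at 0 h and between 25.3 and 142 CPM after injury, and no marker of the 8 cell types listed was at 0 in any section. UMIs were summed over the passing spots of a section, scaled by TMM, a factor that sets aside the genes that differ most between libraries. They were tested with edgeR's quasi-likelihood test over all 14821 genes that passed the filter on low counts. All 10 p53 targets passed it. A gene is said to be called where its Benjamini-Hochberg adjusted p over all genes was under 0.05, and a log2 fold change is given with its SE. Without TMM, the median log2 fold change of all genes against 0 h was 0.37, 0.49 and 0.54 at the 3 injured times in order, instead of 0.05, 0.05 and 0.01, and the changes below are relative to the TMM centre.

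At 24 h 6 of the 10 targets were called higher than at 0 h, beside 23.1% of all genes, and 0 lower, beside 18.6%. The counts were 4 higher (16.8% of genes) and 0 lower (12.4%) at 36 h, and 5 higher (23.3%) and 0 lower (20.9%) at 48 h. The 3 comparisons share the same 0 h sections. Bax, Gdf15, Mdm2 and Phlda3 were called at every time, Ccng1 at 24 h and 48 h and Sesn2 at 24 h. For Bax, Ccng1, Gdf15, Mdm2 and Phlda3, all 8 injured sections lay above all 3 sections at 0 h. That pattern held for 15.7% of all genes, and the opposite one for 14.2% of genes and none of the 10. The median log2 fold change of the 10 genes was 0.99, 0.51 and 0.41 at the 3 times in order. With total-count scaling 7, 6 and 7 targets were called higher and 0 lower. The share of all calls that were higher went from 55.4%, 57.5% and 52.7% to 80.4%, 94.1% and 93.7%. Neutrophil markers were called higher at every time (5 of 5). Of 7 mesenchyme markers 3, 6 and 6 were called higher at the 3 times in order and 1, 1 and 0 lower. Of 4 mononuclear phagocyte markers 1, 1 and 3 were called higher and 0 lower. Of 5 hepatocyte markers 1, 0 and 1 were called higher and 3, 1 and 3 lower. The median share of a spot's UMIs from mitochondrial genes was 4.31% to 6.38% in the 0 h sections and 1.69% to 2.68% in 7 of the 8 injured ones, while 36 h replicate B stood apart at 4.56%. The part of these markers and of this share in the levels of the targets was not tested. In bulk sums such as these, fewer cells of a type and less RNA per cell cannot be told apart.

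**Figure D1:**
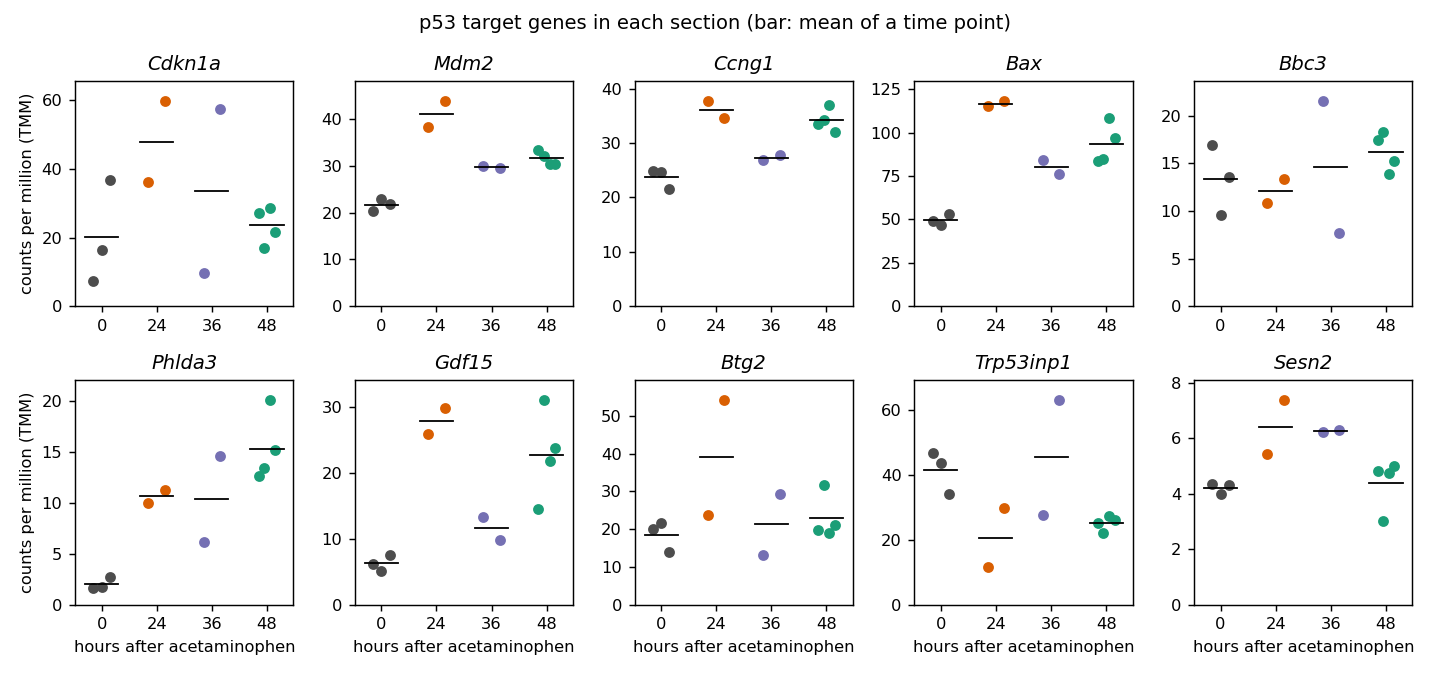
Level of each p53 target in each of the 11 sections, in TMM-scaled CPM on axes that start at 0, with hours after acetaminophen on the x axis, each point 1 section and each bar the mean of a time point. Bax, Ccng1, Gdf15, Mdm2 and Phlda3 lie higher in all 8 injured sections than in the 3 sections at 0 h, while Cdkn1a, Btg2, Bbc3 and Trp53inp1 spread widely within a time point.

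Among the genes that stop or slow the cell cycle, Ccng1 (ENSMUSG00000020326, GRCm38 chr11:40748552-40755311, minus strand), an atypical cyclin that also feeds back on p53, stood at 24.9, 24.7 and 21.6 CPM at 0 h. After injury it stood at 37.6 and 34.6 CPM at 24 h, 26.9 and 27.8 CPM at 36 h, and 33.5, 34.3, 37.0 and 32.1 CPM at 48 h. No injured section overlapped with 0 h. Its 24 h log2 fold change was 0.61 (SE 0.10, edgeR adjusted p = 0.00102) and its 48 h value 0.53 (SE 0.09, adjusted p = 0.000801). The 36 h value of 0.20 (SE 0.10, adjusted p = 0.157) was not called with TMM but was 0.64 and called with total-count scaling. Cdkn1a (ENSMUSG00000023067, chr17:29090976-29100727, plus strand) stood at 7.33, 16.3 and 36.9 CPM at 0 h. The injured sections held 36.3 and 59.7 CPM at 24 h, 9.68 and 57.5 CPM at 36 h, and 27.1, 16.9, 28.7 and 21.6 CPM at 48 h. The sections at 0 h alone spanned a range as wide as most of the time course, and the 36 h pair lay near opposite ends of the injured range. Its log2 fold changes of 1.26 (SE 0.71), 0.74 (SE 0.72) and 0.23 (SE 0.61) were not called, with adjusted p of 0.186, 0.461 and 0.779, and without 36 h replicate B the 36 h value was -1.05. Btg2 (ENSMUSG00000020423, chr1:134075170-134079120, minus strand), an antiproliferative early response gene, stood at 20.03, 21.7 and 14.1 CPM at 0 h. Its injured sections lay at 23.8 and 54.1 CPM at 24 h, 13.2 and 29.3 CPM at 36 h, and 19.7, 31.7, 19.1 and 21.1 CPM at 48 h. The 24 h and 36 h pairs each differed by more than 2 times, 48 h replicate B lay above the other 3 sections of its time, and 24 h replicate B was the highest of all. The 24 h log2 fold change of 1.06 (SE 0.40, adjusted p = 0.0543) was not called with TMM, was 0.35 without 24 h replicate B, and was 1.38 and called with total-count scaling.

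Of the genes of apoptosis, Bax (ENSMUSG00000003873, chr7:45461697-45466898, minus strand), the pore-forming protein of the mitochondrial outer membrane, was higher at each time, and Bbc3 (ENSMUSG00000002083, chr7:16308393-16318205, plus strand), which encodes the BH3-only protein PUMA, was not called at any. Bax stood at 49.0, 46.6 and 53.2 CPM at 0 h. After injury it stood at 115 and 118 CPM at 24 h, 84.6 and 76.3 CPM at 36 h, and 83.5, 84.6, 108 and 97.2 CPM at 48 h. The lowest injured section was still above the highest at 0 h, and both sections at 24 h were above all others. The log2 fold changes were 1.23 (SE 0.13), 0.70 (SE 0.13) and 0.91 (SE 0.11) at the 3 times in order, with edgeR adjusted p of 7.56e-05, 0.00348 and 0.000141. Bax shares exon sequence with the same-strand gene Gm45808 in the GENCODE annotation, so its counts could be split between them. Bbc3 stood at 16.97, 9.61 and 13.6 CPM at 0 h. The injured sections held 10.8 and 13.3 CPM at 24 h, 21.5 and 7.65 CPM at 36 h, and 17.4, 18.3, 13.9 and 15.2 CPM at 48 h. Every time point overlapped with 0 h, and its log2 fold changes were -0.15, 0.12 and 0.28, the first of which turned to 0.18 with total-count scaling. Trp53inp1 (ENSMUSG00000028211, chr4:11156431-11174379, plus strand), whose product promotes cell death and autophagy, stood at 46.8, 43.7 and 34.2 CPM at 0 h. Its injured sections lay at 11.5 and 29.9 CPM at 24 h, 27.8 and 63.0 CPM at 36 h, and 25.3, 22.1, 27.3 and 26.2 CPM at 48 h. Both sections at 24 h and all 4 at 48 h lay below 0 h, yet the log2 fold changes of -1.01 (SE 0.40, adjusted p = 0.0656) and -0.72 (SE 0.32, adjusted p = 0.0929) were not called in the fit over all sections. DESeq2 called it lower at 24 h, and so did edgeR at 48 h when the 0 h and 48 h sections were fitted alone. It was the only one of the 10 targets whose sections lay below those at 0 h at 2 of the 3 times.

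Phlda3 (ENSMUSG00000041801, chr1:135766119-135769136, plus strand), an inhibitor of the survival kinase AKT, and Gdf15 (ENSMUSG00000038508, chr8:70629393-70632456, minus strand), a secreted cytokine of the TGF-beta family that is released by stressed cells, changed most. Phlda3 stood at 1.65, 1.79 and 2.71 CPM at 0 h. After injury it stood at 9.99 and 11.3 CPM at 24 h, 6.17 and 14.7 CPM at 36 h, and 12.7, 13.5, 20.1 and 15.2 CPM at 48 h. All 8 injured sections lay above 0 h, with log2 fold changes of 2.39 (SE 0.35), 2.36 (SE 0.35) and 2.92 (SE 0.32) and edgeR adjusted p of 0.000536, 0.00153 and 9.95e-05, and no injured time differed from another beyond the spread between sections. Gdf15 stood at 6.23, 5.08 and 7.57 CPM at 0 h. The injured sections held 25.9 and 29.8 CPM at 24 h, 13.3 and 9.87 CPM at 36 h, and 14.5, 31.0, 21.9 and 23.7 CPM at 48 h. The 36 h sections were the lowest of the injured ones. Its log2 fold changes were 2.15 (SE 0.28), 0.89 (SE 0.28) and 1.86 (SE 0.25), with adjusted p of 0.000252, 0.0376 and 0.000259, and the 36 h call was lost in 6 of the 11 fits that left out 1 section, at 0.65 to 1.09.

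Mdm2 (ENSMUSG00000020184, chr10:117688875-117710758, minus strand), the negative regulator of p53, stood at 20.4, 23.0 and 21.8 CPM at 0 h. Its injured sections lay at 38.4 and 43.8 CPM at 24 h, 29.9 and 29.6 CPM at 36 h, and 33.5, 32.2, 30.3 and 30.4 CPM at 48 h. Replicates lay close together at every time, with log2 fold changes of 0.92 (SE 0.10), 0.45 (SE 0.10) and 0.54 (SE 0.08) and edgeR adjusted p of 9.12e-05, 0.00807 and 0.000599. Sesn2 (ENSMUSG00000028893, chr4:132492032-132510501, minus strand), a stress-induced inhibitor of mTORC1, stood at 4.36, 3.97 and 4.32 CPM at 0 h. After injury it stood at 5.42 and 7.37 CPM at 24 h, 6.23 and 6.31 CPM at 36 h, and 4.82, 2.999, 4.75 and 4.98 CPM at 48 h. Both earlier injured times lay above 0 h, and 48 h overlapped with it. Its 24 h log2 fold change of 0.60 (SE 0.22, adjusted p = 0.0463) lost its call in 8 of the 11 fits that left out 1 section, and was 0.36 without 24 h replicate B.

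**Figure D2:**
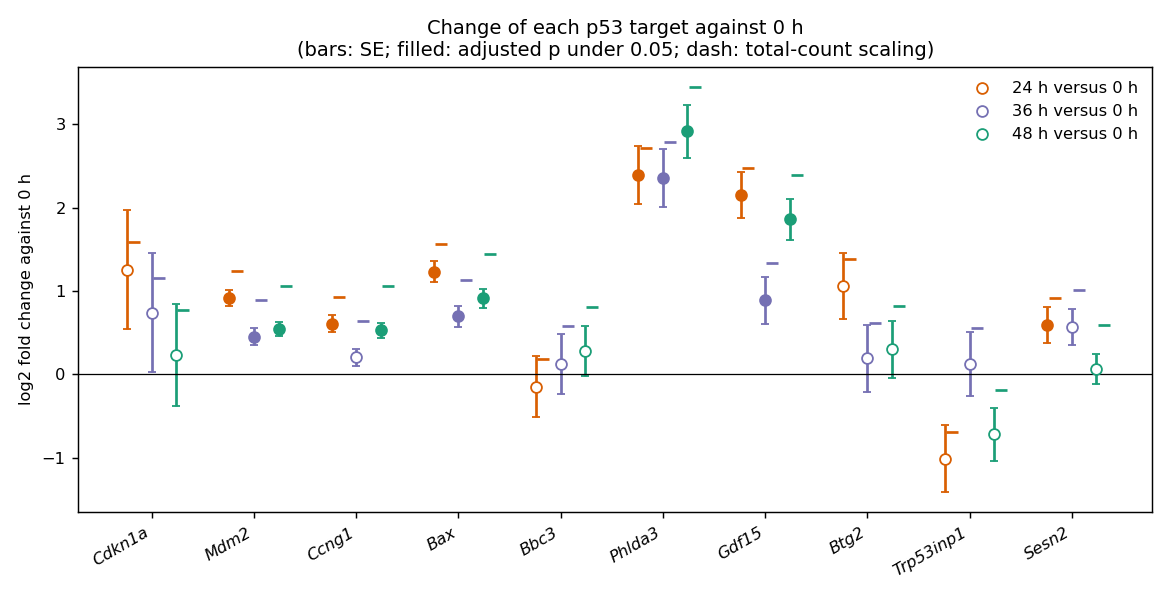
Log2 fold change of each p53 target against 0 h at 24 h, 36 h and 48 h, with bars for the SE, filled points where the edgeR adjusted p was under 0.05 and dashes for the value under total-count scaling. Phlda3 is highest at each time, from 2.36 to 2.92, and Trp53inp1 is lowest at 24 h, at -1.01.

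Injured times were also compared with each other. At 36 h against 24 h, 4 of the 10 targets (Gdf15, Bax, Mdm2 and Ccng1) were called lower and none higher, beside 15.6% of all genes called in either direction, 8.55% lower and 7.05% higher. The log2 fold change was -1.26 (SE 0.31, adjusted p = 0.0241) for Gdf15, -0.54 (SE 0.14, adjusted p = 0.0307) for Bax, -0.47 (SE 0.11, adjusted p = 0.0215) for Mdm2 and -0.40 (SE 0.11, adjusted p = 0.0378) for Ccng1. Each of the 4 was lower in both 36 h sections than in either 24 h section. They were picked by the test of these same sections, so this adds no support. The share of all genes with that pattern was not taken. With 2 sections on each side the calls were not stable, falling to 1 under total-count scaling, to 0 in the fit of these 4 sections alone, and to 0 without 24 h replicate A or without 36 h replicate B. DESeq2 called the same 4 targets lower and also called Trp53inp1 higher, at 1.13 (adjusted p = 0.035), against 1.14 and no call with edgeR. At 48 h against 24 h, 1 target was called, Mdm2, at -0.38 (SE 0.09, adjusted p = 0.011), beside 34.1% of all genes (17.8% lower, 16.3% higher), and with total-count scaling its -0.18 was not called. At 48 h against 36 h edgeR called 0 targets, beside 3.05% of all genes (1.62% higher, 1.43% lower), while 4 had an unadjusted p under 0.05 and DESeq2 called 2. For Gdf15 that difference was 0.97 (SE 0.27, adjusted p = 0.0828) and for Ccng1 0.32 (SE 0.10, adjusted p = 0.101). Total-count scaling moved the share of all calls that were higher from 45.2% to 68.0% (36 h against 24 h), from 47.7% to 74.0% (48 h against 24 h) and from 53.1% to 74.2% in the last of these comparisons.

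The share of spots with at least 1 UMI showed how widely the targets were detected. To compare sections of unequal depth, spots were thinned to 5000 UMIs each, which left out 1 to 260 shallower spots per section. Bax was found in 15.7%, 16.4% and 18.1% of spots at 0 h. It was found in 43.2% and 43.8% at 24 h, in 34.2% and 31.2% at 36 h, and in 33.4%, 34.4%, 42.7% and 40.1% at 48 h. Phlda3 was found in 0.466%, 0.678% and 0.918% of spots at 0 h. The injured shares were 4.97% and 5.75% at 24 h, 2.97% and 6.30% at 36 h, and 6.31%, 7.19%, 11.02% and 8.16% at 48 h. Neither gene's injured sections overlapped with 0 h, nor did those of Ccng1, Gdf15 and Mdm2. Those of Cdkn1a, Bbc3, Btg2, Trp53inp1 and Sesn2 did overlap. Trp53inp1, for example, was found in 10.9% to 16.6% of spots at 0 h and in 6.84% to 27.2% after injury. The share of all genes without overlap was not taken on this measure. Without thinning Bax was found in 50.3% to 60.9% of spots at 0 h and in 64.4% to 87.1% after injury. A spot without a UMI at this depth is not a spot without the transcript. The matrices also hold spots outside the tissue mask, which were not used to set a background.

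Spots were then classed by the share of their UMIs from the 5 hepatocyte markers, which include none of the targets. A spot was called hepatocyte-low where this share was under 5.8%, the mean 1st percentile of the 0 h sections, a ring 1 spot touched a low spot, and a far spot lay at least 3 steps from any. The 7 injured sections with 20 or more spots of each class held 926 low, 2760 ring 1 and 9318 far spots, while 36 h replicate B had 10 low spots and was not used. UMIs were summed per class and section and tested with the section as a block.

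In hepatocyte-low spots 7 of the 10 targets were called higher than in far spots and 2 lower, beside 33.5% of all 12447 genes tested called higher and 29.2% called lower. Phlda3 was at 20.3 and 26.6 CPM in low spots against 10.6 and 13.4 CPM in far spots at 24 h. It was at 15.1 against 7.30 CPM in 36 h replicate A, and at 42.2, 57.8, 47.0 and 36.4 CPM against 12.9, 14.3, 15.8 and 15.7 CPM at 48 h. It was higher in low spots in 7 of 7 sections, by 1.92 to 4.06 times within a section. The log2 difference was 1.40 (SE 0.13, adjusted p = 1.01e-08, edgeR). Bax was at 205 and 180 CPM in low spots against 126 and 138 CPM in far spots at 24 h. It was at 205 against 99 CPM at 36 h, and at 191, 171, 234 and 198 CPM against 93.2, 97.3, 95.6 and 106 CPM at 48 h. No low value overlapped with a far value. The share of all genes without overlap, or higher in 7 of 7 sections, was not taken. The log2 difference of Bax was 0.89 (SE 0.08, adjusted p = 8.76e-09). Gdf15 followed with 0.79 (SE 0.11, adjusted p = 4.7e-06), Ccng1 with 0.52 (SE 0.09, adjusted p = 3.19e-05), Sesn2 with 0.47 (SE 0.12, adjusted p = 0.00259) and Mdm2 with 0.36 (SE 0.09, adjusted p = 0.00102).

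Cdkn1a, which was called at no time against 0 h, was called here. It was at 54.5 and 93.7 CPM in low spots against 42.0 and 71.6 CPM in far spots at 24 h. The values were 31.6 against 10.2 CPM in 36 h replicate A, and 50.02, 25.2, 44.8 and 26.5 CPM against 30.8, 19.7, 29.2 and 25.8 CPM at 48 h. It was higher in low spots in 7 of 7 sections although the sections themselves stood far apart, and the within-section log2 difference was 0.52 (SE 0.11, adjusted p = 0.000349). AC167363.2, an opposite-strand model, overlaps exons of Cdkn1a, and whether strand was used in counting is not given in the sources used here. Btg2, at -0.46 (SE 0.09, adjusted p = 0.00016), and Bbc3, at -0.39 (SE 0.13, adjusted p = 0.0141), were called lower in low spots with TMM, but both differences were above 0 and not called with total-count scaling, at 0.01 and 0.09. Bbc3 also lost its call without 48 h replicate A (-0.23) or replicate B (-0.32). Trp53inp1, at -0.17 (SE 0.13, adjusted p = 0.247), was not called and turned to 0.30 and a call with total-count scaling. Total-count scaling moved the median of all genes from 0.04 to 0.51 and the share of calls that were higher from 53.4% to 84.3%, and called 8 of the 10 targets higher and 0 lower.

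**Figure D3:**
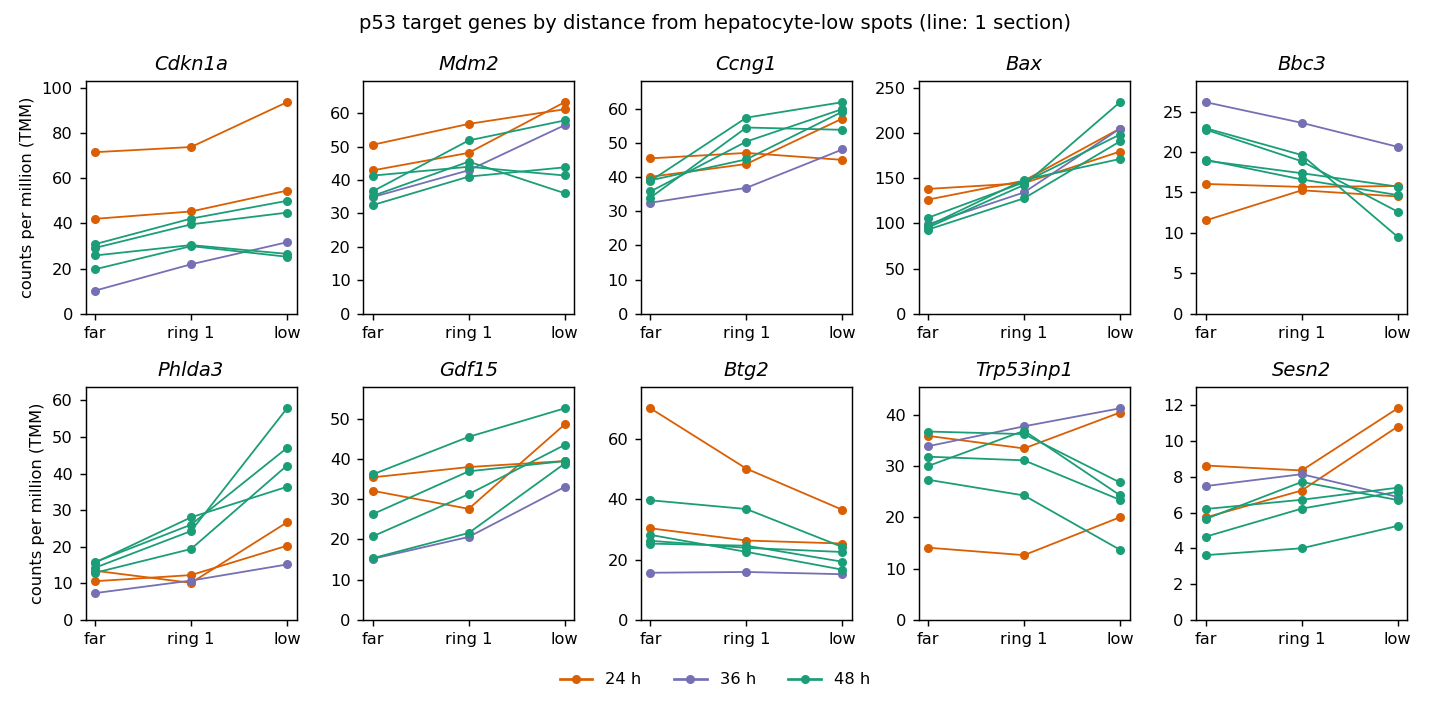
Level of each p53 target in far, ring 1 and hepatocyte-low spots, in TMM-scaled CPM on axes that start at 0, with 1 line for each of the 7 injured sections coloured by time. Bax and Phlda3 lie higher in low than in far spots in every section, by up to 2.45 times and 4.06 times, and Btg2 lies lower in every section.

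Low spots differed from far spots in cell types too, and hepatocyte markers were at 45844 to 54028 CPM in them against 90673 to 113633 CPM. Summed mononuclear phagocyte markers (Lyz2, Csf1r, Cd68 and Cd5l) were at 992 to 6801 CPM in low spots against 463 to 1056 CPM in far spots, with 4 of 4 called higher, and mesenchyme markers at 338 to 6398 against 178 to 1216 CPM, with 6 of 7 called higher. Neutrophil markers were at 84.6 to 406 CPM against 25.4 to 130 CPM, with 5 of 5 called higher. All 5 hepatocyte markers, which define the class, were called lower. The part of these cells in the levels of the targets was not tested. After thinning to 5000 UMIs, Bax was found in a median of 64.7% of low spots against 33.8% of far spots, and Phlda3 in 22.7% against 6.05%, with median depths of 16077 to 26353 UMIs in low and 14700 to 28019 UMIs in far spots before thinning.

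Ring 1 spots held 75067 to 93133 CPM of hepatocyte markers against 90673 to 113633 CPM in far spots, with 5 of 5 called lower. In ring 1 spots 6 of the 10 targets were called higher than in far spots and none lower. Of all genes 7.95% were called higher and 9.21% lower. The log2 difference was 0.54 (SE 0.12, adjusted p = 0.00441) for Phlda3, 0.40 (SE 0.08, adjusted p = 0.00223) for Bax, 0.37 (SE 0.10, adjusted p = 0.0141) for Cdkn1a, 0.34 (SE 0.08, adjusted p = 0.00678) for Ccng1, 0.31 (SE 0.10, adjusted p = 0.043) for Gdf15 and 0.27 (SE 0.08, adjusted p = 0.0173) for Mdm2. Bax, Ccng1, Cdkn1a and Mdm2 were higher in ring 1 in 7 of 7 sections, and Gdf15, Phlda3 and Sesn2, which was not called, in 6 of 7. Trp53inp1 was higher in 2 of 7, and Bbc3 and Btg2 in 1 of 7 each. The share of all genes higher in as many sections was not taken. Mononuclear phagocyte markers were at 526 to 2394 CPM in ring 1, with 2 of 4 called higher than in far spots. Also called higher were 4 of 7 mesenchyme and 3 of 5 neutrophil markers, and none of these 3 lists had a marker called lower. The part of these cells was not tested. Total-count scaling called 7 targets higher and moved the share of all calls that were higher from 46.3% to 91.4%. With far spots at least 5 steps away 2 targets were called, and without any of the 48 h replicates B, C or D 3 were. Among the 7 fits that left out 1 section Gdf15 lost its call in 5, Cdkn1a and Mdm2 in 3 each and Ccng1 in 1.

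Step by step, in CPM of all UMIs with no TMM factor, the median of Bax over the 7 sections was 241 CPM in low spots, 132 CPM at 1 step, 82.0 CPM at 2 steps, 81.6 CPM at 3 steps and 90.9 CPM at 6 steps or more. Phlda3 went from 45.3 to 19.7, 10.9 and 7.71 CPM over the first 3 steps and was at 11.1 CPM at 6 steps or more. Cdkn1a went from 55.7 to 38.8, 24.9 and 23.1 CPM, and Mdm2 from 63.8 to 44.8, 33.1 and 31.0 CPM. For these 4 genes most of the fall lay within the first 2 steps. Other targets were nearly level over the same distance, with Bbc3 at 16.7, 18.0, 17.7 and 16.4 CPM from low spots to 3 steps, Btg2 at 25.9, 23.4, 22.4 and 25.6 CPM, and Trp53inp1 at 30.7, 32.2, 28.1 and 27.1 CPM. On this scale the median gene was itself higher in low spots than at 2 steps, by 1.22 to 1.56 times within a section among genes with at least 50 UMIs. Bax, Ccng1, Cdkn1a, Gdf15 and Phlda3 had a larger ratio than that median in 7 of 7 sections and Mdm2 and Sesn2 in 6, while Trp53inp1 did in 3, Bbc3 in 2 and Btg2 in 0.

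**Figure D4:**
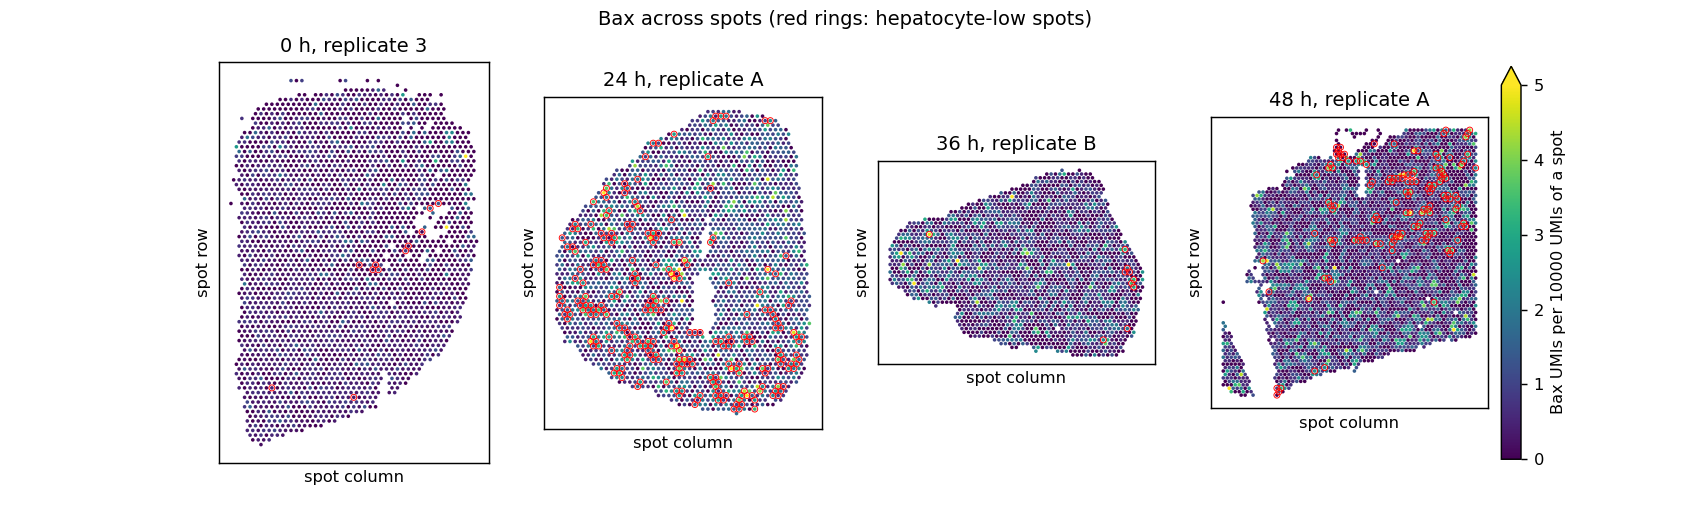
Bax across the spots of the section with most spots at each time, coloured by Bax UMIs per 10000 UMIs of a spot (scale from 0 to 5) at the spot's row and column on the array, with hepatocyte-low spots ringed in red. The ringed spots number 11, 255, 10 and 136 in order of time, and in the 24 h and 48 h sections shown Bax was at 205 and 191 CPM in low spots against 126 and 93.2 CPM in far spots.

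The contrast between low and far spots was itself compared between 48 h (4 sections) and 24 h (2 sections), and 3 of the 10 targets were called higher and 2 lower, beside 13.3% and 16.9% of all genes. It was larger at 48 h for Phlda3, by 0.67 (SE 0.21, adjusted p = 0.0146), Ccng1, by 0.52 (SE 0.15, adjusted p = 0.00726), and Bax, by 0.48 (SE 0.12, adjusted p = 0.00174), on the log2 scale. It was smaller, or turned round, for Trp53inp1, at -0.83 (SE 0.19, adjusted p = 0.000667), and Bbc3, at -0.79 (SE 0.25, adjusted p = 0.0142). Trp53inp1 was 1.42 and 1.13 times as high in low as in far spots at 24 h, and 0.810, 0.5001, 0.729 and 0.736 times as high at 48 h. Bbc3 was 1.26 and 0.984 times as high at 24 h and 0.414, 0.554, 0.771 and 0.830 times as high at 48 h, and its call was lost with total-count scaling (-0.62), which moved the share of all calls that were higher from 43.9% to 63.2%. All 4 mononuclear phagocyte and 5 of 7 mesenchyme markers were called higher in this contrast as well, and their part was not tested. These calls rest on the 2 sections at 24 h, which differed from each other. With 24 h replicate B as the only section at 24 h, Bax alone was called, and Ccng1 went from 0.52 to 0.12, Phlda3 to 0.55, Trp53inp1 to -0.67 and Bbc3 to -0.62. With replicate A alone, Ccng1, Trp53inp1 and Bbc3 were called, while Bax went to 0.29 and Phlda3 to 0.59. In both fits a lone section is assumed to vary like the others.

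In uninjured liver the targets were compared across the lobule, which runs from portal tracts to central veins and is the axis along which APAP later kills hepatocytes. Spots were ranked by a score from the central and portal gene lists that the study drew from its own spatial data, none of which holds a target, and in each 0 h section the spots in the upper tertile were compared with those in the lower. On the log2 scale central spots had more Bbc3 at 0.31 (SE 0.09, adjusted p = 0.00343), Ccng1 at 0.19 (SE 0.07, adjusted p = 0.0233) and Trp53inp1 at 0.17 (SE 0.05, adjusted p = 0.0121). They had less Btg2 at -0.95 (SE 0.08, adjusted p = 5.37e-17), Gdf15 at -0.55 (SE 0.13, adjusted p = 0.000326) and Cdkn1a at -0.40 (SE 0.08, adjusted p = 1.17e-05). Without 0 h replicate 3 Trp53inp1 went to 0.077 and lost its call, and Ccng1 lost its call in 2 of the 3 fits that left out 1 section, at 0.23 without replicate 3 and 0.12 without replicate 4. These were 3 of 10 called higher and 3 called lower, beside 12.8% and 13.6% of 12335 genes. Total-count scaling also called 3 and 3 while moving the share of all calls that were higher from 48.6% to 67.4%. Of the markers, 3 of 5 of hepatocytes, 3 of 4 of cholangiocytes and 3 of 4 of mononuclear phagocytes were called lower in central spots, and their part was not tested. Btg2 was at 9.96, 11.7 and 8.23 CPM in central spots against 22.1, 22.1 and 13.6 CPM in portal spots, and Cdkn1a at 4.49, 10.3 and 26.1 against 6.23, 13.6 and 34.1 CPM, lower in central spots in each section. Bax (0.04, SE 0.05, adjusted p = 0.618) was at 39.2, 38.0 and 43.9 CPM in central against 39.7, 37.0 and 40.8 CPM in portal spots.

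The same tertiles in injured sections are given as a description, in CPM with no TMM factor and with no test. The study reported disrupted hepatocyte zonation in this mouse injury. After injury the score ranks spots by the listed genes and may not mark their position in the lobule. The central to portal ratio of Cdkn1a was 0.752 to 0.805 in uninjured liver and 1.49 to 4.76 in the 8 sections after injury. In each of these 8 it was higher in central-scored than in portal-scored spots, as were 74.7% to 81.4% of genes with at least 50 UMIs. The other targets were too, apart from Btg2, which was higher in 5 of the 8. For Gdf15 the ratio was 0.576 to 0.914 at 0 h and 1.72 to 3.53 after injury. For Phlda3 it was 0.809 to 1.12 at 0 h and 2.56 to 4.94 after injury, and for Bax 1.03 to 1.13 and 1.88 to 2.91. Bbc3 overlapped, at 1.24 to 1.36 at 0 h and 1.03 to 1.45 after injury. The median ratio of all genes with at least 50 UMIs was 1.04 to 1.06 at 0 h and 1.17 to 1.32 after injury, below that of Cdkn1a, Gdf15, Phlda3 and Bax in every injured section. Markers of other cells moved with these ratios. In injured sections summed mononuclear phagocyte markers had a median of 990 CPM in central against 400.3 CPM in portal spots. Mesenchyme markers were at 926 against 372 CPM, cholangiocyte markers at 1225 against 598 CPM and neutrophil markers at 94.6 against 28.1 CPM. The cholangiocyte value is a sum of 4 genes that did not move together. Of these 4, 1 was called higher and 1 lower in hepatocyte-low than in far spots. At 0 h the phagocyte medians were 299 against 357 CPM, and the part of these cells in the ratios of the targets was not tested. In each injured section 10 to 198 low spots lay in the central tertile and 0 to 3 in the portal one. At 0 h 8, 11 and 52 low spots lay in the central tertile and 0, 0 and 2 in the portal one. Low spots were thus mostly central-scored in uninjured liver as well. The part of this in the low to far differences was not tested. Without low and ring 1 spots the median ratio over the injured sections was 1.87 for Cdkn1a, 2.11 for Gdf15, 3.15 for Phlda3 and 1.90 for Bax. With them it was 2.09, 2.24, 3.54 and 2.25 in the same order. In 48 h replicate C leaving them out took Cdkn1a from 2.16 to 1.72 and Gdf15 from 2.56 to 1.96. There Phlda3 went from 3.21 to 1.85 and Bax from 2.69 to 1.78. No ratio of all genes was taken for the reduced spots, and the part of low spots was not tested.

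**Figure D5:**
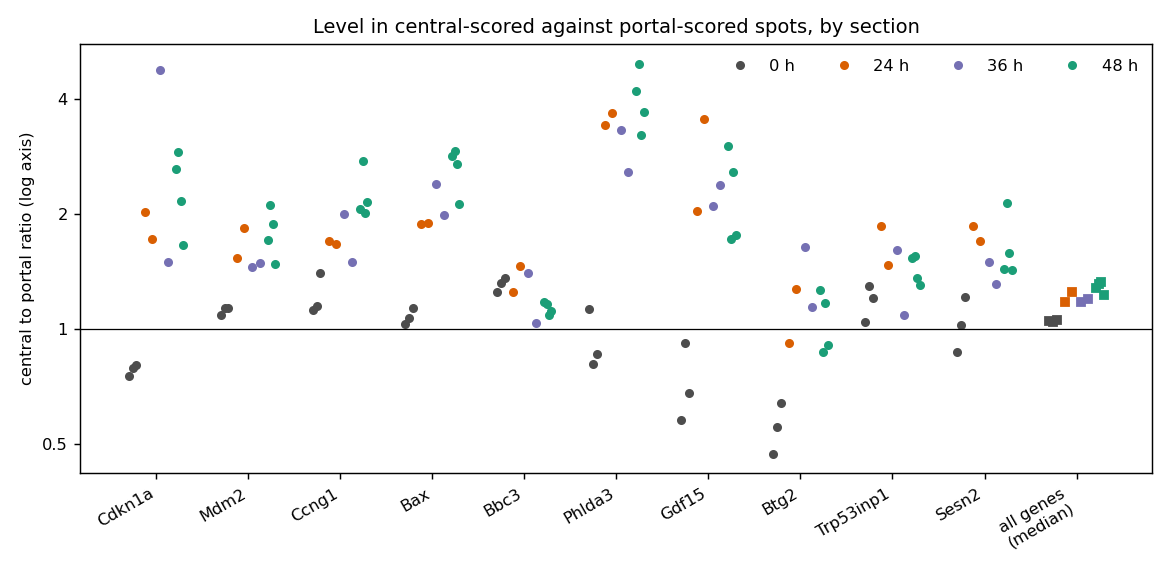
Ratio of the level in central-scored to that in portal-scored spots for each p53 target, on a log axis, with 1 point per section coloured by time and squares for the median of all genes. The 0 h points of Cdkn1a lie below 1, at 0.752 to 0.805, and its injured points above it, at 1.49 to 4.76.

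At 48 h, spots with transcripts of cycling cells were compared with spots without them. Spots with at least 2 UMIs of Mki67, Top2a and Ccnb2 after thinning to 5000 UMIs numbered 51, 74, 167 and 228 in the 4 sections, and those with 0 numbered 1141 to 2916. In these proliferation-high spots 6 targets were called higher and 2 lower, beside 22.5% of 13293 genes called higher and 22.7% lower. Phlda3 was at 37.3, 26.6, 38.7 and 30.4 CPM against 14.1, 14.5, 21.6 and 15.5 CPM, a log2 difference of 0.96 (SE 0.09, adjusted p = 1.24e-11). Cdkn1a, whose product halts the cell cycle, was at 51.8, 29.6, 47.9 and 31.7 CPM against 32.1, 19.3, 33.9 and 26.2 CPM, higher in 4 of 4 sections at 0.47 (SE 0.08, adjusted p = 7.25e-06). The share of all genes higher in 4 of 4 sections was not taken. Bax (0.64), Ccng1 (0.46), Gdf15 (0.39) and Mdm2 (0.19) were also called higher. Mdm2 lost its call in 3 of the 4 fits that left out 1 section, at 0.15 to 0.23 over the 4, and Gdf15 lost it without replicate C, at 0.23. Total-count scaling called 8 targets higher and 0 lower, and moved the share of all calls that were higher from 49.8% to 84.9%. Bbc3 (-0.26) and Btg2 (-0.24) were called lower with TMM, at adjusted p = 0.0367 and 0.0458, but were above 0 and not called with total-count scaling, at 0.06 and 0.08. With 1 section left out Bbc3 lost its call in 4 of 4 fits and Btg2 in 3, and Btg2 was -0.13 without replicate B and -0.40 without replicate C. These spots held more mononuclear phagocyte markers, 2273 to 3187 against 722 to 1266 CPM, and more mesenchyme markers, 1968 to 3360 against 676 to 1413 CPM. They held less of the hepatocyte markers, 66606 to 85289 against 93930 to 114192 CPM, with 5 of 5 called lower. A spot covers several cells, so the targets and the cycling transcripts need not be in the same cell, and the part of other cell types was not tested.

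Trp53, the gene of p53 itself, stood at 11.4, 13 and 11.8 CPM at 0 h. The injured sections held 10.3 and 10.3 CPM at 24 h, 8.92 and 14.4 CPM at 36 h, and 16.0, 14.8, 16.3 and 13.9 CPM at 48 h. It was called at no time against 0 h, with log2 fold changes of -0.23 (adjusted p = 0.31), -0.05 (adjusted p = 0.851) and 0.34 (adjusted p = 0.0773), and was higher in hepatocyte-low than in far spots by 0.35 (SE 0.13, adjusted p = 0.0203). Mdm4, the partner of MDM2 in restraining p53, was higher at 24 h by 0.55 (SE 0.13, adjusted p = 0.00593) and at 36 h by 0.48 (SE 0.13, adjusted p = 0.0183). Chek1, a checkpoint kinase that also rises with the cell cycle, was higher at each time, by 1.21 to 2.69. Of the 8 regulators of p53 tested, 2, 2 and 3 were called higher at 24 h, 36 h and 48 h, beside 23.1%, 16.8% and 23.3% of all genes, and 0 lower.

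Another 39 genes known as p53 targets were listed with the same pathway in mind, of which 38 were tested. The counts called were 14 higher and 8 lower after 24 h, 16 and 6 after 36 h, and 16 and 10 after 48 h, with median log2 fold changes of 0.16, 0.31 and 0.20. Among all genes 23.1%, 16.8% and 23.3% were called higher at these times and 18.6%, 12.4% and 20.9% lower, and the counts called lower in the list lie near those shares. Of 13 genes of cell death, 7, 7 and 8 were called higher at the 3 times and 1, 2 and 1 lower. Those called higher included the receptor genes Eda2r (3.95, 2.93 and 3.27) and Tnfrsf10b (3.17, 2.99 and 2.74). Aen, Apaf1, Pidd1, Pmaip1 and Zmat3, all of that group, were called higher at each time as well. Eda2r and Tnfrsf10b were rare at 0 h, with 14 and 33 UMIs over the 3 sections. Of 8 arrest genes tested, 3, 3 and 4 were called higher and 0, 0 and 1 lower, with Gadd45a at 2.38, 1.98 and 1.14. Of 6 repair genes 2, 3 and 2 were called higher and 1, 1 and 3 lower, with Gadd45b at 2.29, 1.5 and 1.79. The genes called lower in these 2 groups, named after their values were seen, were Plk3 at 48 h (-1.67), Rrm2b at 48 h (-1.19), Ercc5 at 24 h (-0.44) and 48 h (-0.53), and Xpc at 36 h (-0.40) and 48 h (-0.38). Of 11 metabolic targets 2, 3 and 2 were called higher and 6, 3 and 5 lower. Pank1, an enzyme of coenzyme A synthesis, was at -1.84, -1.04 and -1.58, and Sco2, an assembly factor of cytochrome c oxidase, at -1.36, -1.57 and -1.08. Both were also lower in hepatocyte-low than in far spots, by -1.39 (SE 0.12) for Pank1 and -1.01 (SE 0.12) for Sco2, where Eda2r was higher by 1.22 (SE 0.24) and Gadd45b by 1.32 (SE 0.11).

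Sesn2, Gdf15 and others are also targets of ATF4, the factor of the integrated stress response, so 9 genes of that pathway were listed beside them. The counts called were 6 higher and 1 lower after 24 h, 5 and 3 after 36 h, and 3 and 2 after 48 h, with median log2 fold changes of 2.07, 1.21 and 0.66. Of all genes 23.1% were called higher and 18.6% lower after 24 h, 16.8% and 12.4% after 36 h, and 23.3% and 20.9% after 48 h, and the 48 h counts of the list lie near these shares. Psat1, an enzyme of serine synthesis, was higher by 5.13, 3.92 and 3.59, and Asns, asparagine synthetase, by 3.56, 3.83 and 2.99, while Vldlr, a lipoprotein receptor, was lower by -3.54, -1.40 and -2.85. At 48 h against 24 h 5 of the 9 were called lower, beside 17.8% of all genes, and none higher, beside 16.3%.

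Across the 11 sections the genes most like Mdm2, by Pearson's r of log2 CPM among 9135 genes with at least 5 CPM on average, were Nfkb2 (r = 0.983), Mast2 (0.978), Kctd3 (0.971), Rhbdf1 (0.969) and Icam1 (0.968). Those most like Ccng1 were Spic (0.966), Lamtor3 (0.957), Frmd8 (0.955), Coprs (0.945) and Slc45a4 (0.945), and those most like Cdkn1a were Podxl (0.885), Rab35 (0.883), Sumf1 (0.881), Irak4 (0.877) and Rlim (0.873). No target was among these 15. Among the targets themselves r was highest for Bax with Gdf15 (0.922) and with Mdm2 (0.916), and lowest for Gdf15 with Trp53inp1 (-0.70). These values describe 11 libraries that share 4 time points, and carry no test.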

How the data were processed

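Visium libraries of frozen liver sections were processed by the authors with Space Ranger 1.0.0 on mm10 and, per the labels, Seurat 4.1.1. The deposited matrices hold raw UMI counts, and spot positions and the tissue mask were read from the deposited position files. Spots under tissue were kept where they held 800 or more genes and no more than 20% of UMIs from mitochondria, and counts were summed per section, or per section and spot class with at least 20 spots. Tests used edgeR 4.0.16 (quasi-likelihood, robust, TMM, filterByExpr, two-sided, Benjamini-Hochberg over all genes) in R 4.3.3, with all 11 sections in 1 fit for times and the section as a block for classes. DESeq2 1.42.0 was an alternative. The scripts were tested on simulated data. Gene positions came from GENCODE (GRCm38) and promoters from RefSeq (GRCm38.p6). The members, gene lists and named genes (the 10 targets, Trp53, Mdm4, and up to 12 listed pathway genes and 3 ATF4 genes called against 0 h at every time, by mean size of change) were chosen with earlier results of these data known. Central, portal and cell type lists drew on those of the study. A planned class by a 97-gene cycling list left too few spots at 0 UMIs, so Mki67, Top2a and Ccnb2 were used, chosen after the spot counts were seen. Counting error only is covered where single spots are counted.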

Additional observations from a re-analysis of the deposited data

Results flagged for a closer look

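Among the 4 sections at 48 h, replicate B stood far from the other 3 for Btg2, at 31.7 CPM, and for Sesn2, at 2.999 CPM. A gap of this size appears by chance in about 1 of 20 groups, and 10 genes were looked at.

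The contrast between hepatocyte-low and far spots differed between 48 h and 24 h by a test of the difference for 5 targets, with log2 values of 0.67 for Phlda3, 0.52 for Ccng1, 0.48 for Bax, -0.79 for Bbc3 and -0.83 for Trp53inp1. Low spots at 24 h came from 2 sections. Without 24 h replicate A Ccng1 fell to 0.12 and lost its call, as did Phlda3 (0.55), Bbc3 (-0.62) and Trp53inp1 (-0.67), and without 24 h replicate B Bax fell to 0.29 and Phlda3 was 0.59, neither of them called.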

How the results depend on the processing

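The limits are those of few sections from a single mouse per time point, of spots that mix cells, and of low counts, with 75 to 7548 UMIs behind a target's value in a section. Of the counts of targets called, 46 kept within 1.5 times of their value and 11 did not under the alternatives other than leaving out a section, and 76 did and 18 did not when a section was left out. The cause of the changes below was not tested.

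At 36 h against 24 h the count of 4 went to 1 with total-count scaling and to 0 with the 2 groups fitted alone. At 48 h against 36 h the count of 0 went to 2 with DESeq2, and at 48 h against 24 h the count of 1 went to 0 with total-count scaling and to 2 with the 2 groups fitted alone. In ring 1 spots the count of 6 went to 2 with far spots at least 5 steps away. Without the section as a replicate block the count went to 0 in ring 1 spots, to 1 for central against portal spots and to 3 in proliferation-high spots. With the replicate letter as a block among the injured sections it went to 0 at 36 h against 24 h and at 48 h against 24 h. Deviations of same-letter sections from their group means correlated at -0.227 to 0.27. With only 2 sections at 24 h and 2 at 36 h, the deviations of A and B mirror each other within a time. These values therefore cannot show whether the letters pair the sections, and whether those fits are the better measure was not tested.

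Leaving out 1 section gave 5 to 8 targets called at 24 h against 0 h, 3 to 5 at 36 h, 5 to 6 at 48 h, 0 to 4 at 36 h against 24 h, 0 to 1 at 48 h against 36 h, 0 to 2 at 48 h against 24 h, 8 to 10 in low spots, 3 to 7 in ring 1 spots, 1 to 6 for the low to far contrast between times, 4 to 6 across the lobule and 5 to 6 in proliferation-high spots. At 36 h against 24 h the count was 0 without 24 h replicate A or 36 h replicate B, 1 without 24 h replicate B and 2 without any of the 0 h sections. At 48 h against 36 h it was 1 without 36 h replicate B or 48 h replicate A, and at 48 h against 24 h it was 0 without 24 h replicate B and 2 without 48 h replicate C.

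Differences that changed sign with total-count scaling were those of Bbc3 (0.18) at 24 h against 0 h, Phlda3 (0.070) and Sesn2 (0.089) at 36 h against 24 h, Ccng1 (0.12) at 48 h against 24 h, Bbc3 (0.090), Btg2 (0.0057) and Trp53inp1 (0.30) in low spots, Bbc3 (0.088) in ring 1 spots, Sesn2 (0.027) across the lobule, and Bbc3 (0.058), Btg2 (0.079) and Trp53inp1 (0.22) in proliferation-high spots. Without the filter on low counts Trp53inp1 in ring 1 spots was -0.013. For the low to far contrast between times Btg2 was -0.067 with low spots set at the 5th percentile and -0.079 with the lowest 10% of each section, and with quartiles of the zonation score Sesn2 across the lobule was 0.10.

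Without 1 section the sign was also not fixed for Bbc3 (-0.38 to 0.027) at 24 h against 0 h. At 36 h against 0 h this held for Cdkn1a (-1.05 to 1.51), Bbc3 (-0.81 to 0.68), Btg2 (-0.50 to 0.65) and Trp53inp1 (-0.58 to 0.60), and at 48 h for Cdkn1a (-0.17 to 0.99) and Sesn2 (-0.0028 to 0.20). At 36 h against 24 h it held for Cdkn1a (-2.27 to 0.26), Bbc3 (-0.66 to 0.87), Phlda3 (-0.75 to 0.46) and Sesn2 (-0.24 to 0.21), at 48 h against 36 h for Cdkn1a (-1.28 to 1.28), Bbc3 (-0.42 to 1.08) and Btg2 (-0.35 to 0.78), and at 48 h against 24 h for Trp53inp1 (-0.25 to 1.13). It held for Trp53inp1 (-0.045 to 0.061) in ring 1 spots, for Cdkn1a (-0.031 to 0.26) and Btg2 (-0.24 to 0.45) in the low to far contrast between times, and for Sesn2 (-0.14 to 0.077) across the lobule.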
